A study of Homo sapiens with 9 samples.

Results

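The knockdowns of 2 paralogs were set directly against each other: 3 RNA sequencing libraries of cells in which SIN3A had been reduced and 3 in which SIN3B had been reduced, 6 of the 9 libraries of the series. The libraries were chosen by their sample titles alone, and all genes with enough counts were compared. All libraries came from HEK293T, an established line of human embryonic kidney origin with SV40 large T antigen, and every group had been transfected for 36 h with 10 nM of an Ambion Silencer Select siRNA and Lipofectamine RNAiMAX. The 3 groups of 3 libraries were a control siRNA, an siRNA against SIN3A and an siRNA against SIN3B. The treatment text of each sample closes with the control siRNA, so groups were read from titles. Labels do not say whether replicates were separate cultures, so the p-values rest on a spread among libraries that could be technical.

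SIN3A and SIN3B are scaffold proteins with no DNA-binding domain of their own. Each is brought to promoters by sequence-specific factors such as the MAD family partners of MAX, and holds the histone deacetylases HDAC1 and HDAC2 together with accessory subunits. Both are known as corepressors of cell-cycle genes, and SIN3B is linked to the repression of E2F targets in cells that leave the cycle. The question here is which transcripts tell the loss of the one from the loss of the other.

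RAB7A, CCNE1 and CDKN1A, picked out with earlier results of these data known, each moved in opposite directions against control in the knockdowns. RAB7A, the GTPase of late endosomes and lysosomes (ENSG00000075785, GRCh38 chromosome 3, 128726122 to 128814796, plus strand), was at 82.1, 83.1 and 83.8 CPM (counts scaled to the library total with TMM factors) in the SIN3A knockdown and at 324, 336 and 322 CPM in the SIN3B knockdown. The control libraries lay between, at 192, 193 and 181 CPM. The difference was -1.98 ± 0.07 on the log2 scale (SIN3A over SIN3B knockdown, SE, edgeR quasi-likelihood adjusted p = 3.98e-13), a level 3.94-fold lower after SIN3A knockdown, and was the one with the lowest p-value of all genes.

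CCNE1, cyclin E1, which drives entry into S phase with CDK2 (ENSG00000105173, chromosome 19, 29811898 to 29824308, plus strand), had the reverse order. It stood at 105, 98.3 and 97.0 CPM in the SIN3A knockdown, 49.9, 46.0 and 52.9 CPM in control and 26.5, 28.9 and 28.8 CPM in the SIN3B knockdown. No library of one group overlapped another group, and the difference was 1.83 ± 0.09 (edgeR adjusted p = 7.02e-11), or 3.56-fold. CDKN1A, the cyclin-dependent kinase inhibitor p21 (ENSG00000124762, chromosome 6, 36676460 to 36687339, plus strand), was at 147, 143 and 122 CPM after SIN3A knockdown and 51.6, 43.8 and 47.2 CPM after SIN3B knockdown, around 78.2, 72.5 and 75.2 CPM in control. Its difference was 1.53 ± 0.09 (edgeR adjusted p = 5.97e-10). A cyclin that promotes S phase and an inhibitor of its kinase were thus both higher after SIN3A knockdown.

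**Figure D1:**
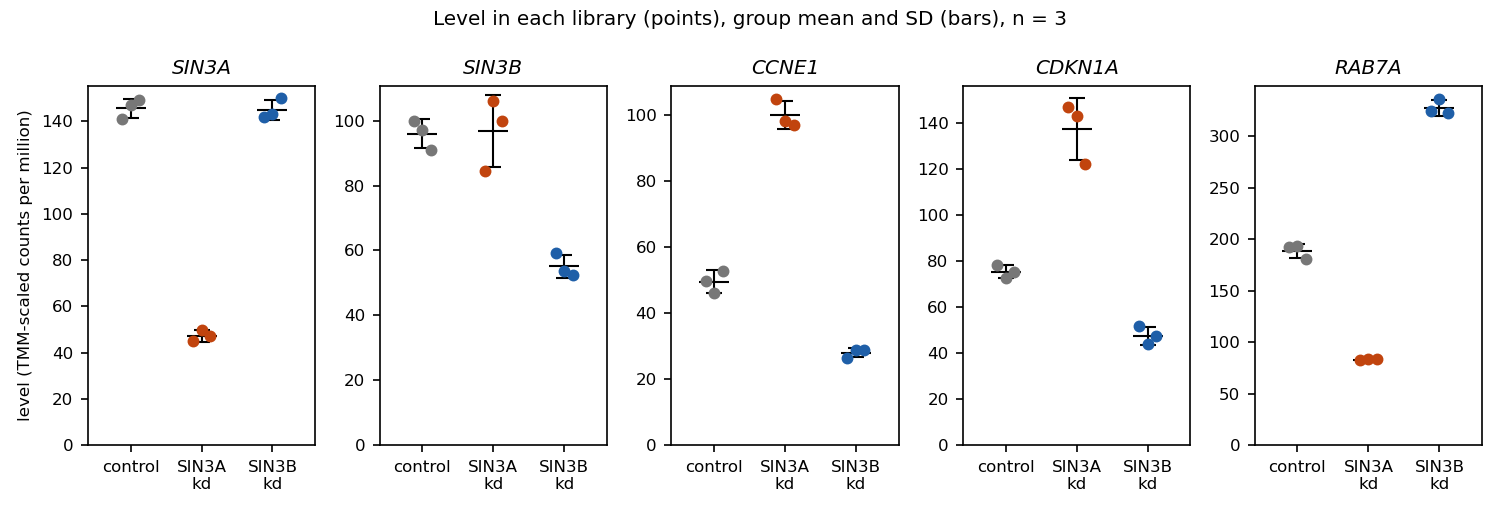
Level of SIN3A, SIN3B, CCNE1, CDKN1A and RAB7A (vertical axes, CPM, each from 0) in the control, SIN3A knockdown (kd) and SIN3B knockdown libraries. Points are libraries, bars the mean and SD of 3. SIN3A is low only in its own knockdown (44.9 to 49.9 CPM) and SIN3B only in its own (52.3 to 59.2 CPM), while the control libraries of CCNE1, CDKN1A and RAB7A lie between the knockdowns.

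The targets check the labels. SIN3A (ENSG00000169375, chromosome 15, 75369379 to 75455842, minus strand) was at 44.9, 49.9 and 47.0 CPM in its own knockdown and at 142, 143 and 150 CPM in the SIN3B knockdown, a difference of -1.62 ± 0.07 (edgeR adjusted p = 4.01e-11). SIN3B (ENSG00000127511, chromosome 19, 16829400 to 16880353, plus strand) was at 84.6, 106 and 100 CPM in the SIN3A knockdown and 59.2, 53.8 and 52.3 CPM in its own, a difference of 0.81 ± 0.09 (edgeR adjusted p = 2.0e-06). Of the control level, 32.5% of SIN3A and 57.3% of SIN3B remained. Every difference below therefore compares a deeper with a shallower knockdown, and the paralog and the depth of its knockdown cannot be told apart.

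Totals were 22542798 to 27084884 counts per library, and 98% or more of the nonzero counts in each library were multiples of 4, so a floor of 3 such units (12 counts) was 0.442 to 0.552 CPM. This floor covers counting error only. On the first principal component, with 41% of the variance, the SIN3A knockdown (-22.8 to -14.5) and the SIN3B knockdown (20.4 to 24.4) lay on opposite sides of control (-3.87 to -1.88). Libraries of the SIN3A knockdown were less alike (chi-square per degree of freedom 3.77 to 7.98 between pairs) than those of the other groups (1.46 to 2.07), and replicates 1 and 3 were furthest apart. All 9 markers listed for HEK293T, VIM and NEFM among them, were tested, with a summed level of 1160 to 1410 CPM in the SIN3A and 1060 to 1130 CPM in the SIN3B knockdown (2 higher, 2 lower). Of 39 markers of other cell types, 10 could be tested and 0 were called by edgeR. PTPRC, CD3E and HBB of blood cells, COL1A2 and DCN of fibroblasts, CDH5 of endothelium and TP63 of squamous epithelium had 0 counts in all 9 libraries.

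Across 16686 genes tested, 4517 (27.1%) differed between the knockdowns, 2408 (14.4%) higher and 2109 (12.6%) lower after SIN3A than after SIN3B knockdown (edgeR quasi-likelihood test, adjusted p under 0.05, called from here on). The counts of every gene list below are to be read against these shares, 14.4% higher and 12.6% lower. Most differences were small. The median log2 fold change was 0.50 among the genes called higher and -0.50 among those called lower, and -0.02 over all genes tested. At 2-fold or more, 265 genes (1.59%) were higher and 292 (1.75%) lower. All 3 SIN3A knockdown libraries lay above all 3 SIN3B knockdown libraries in 3312 genes (19.8%) and below them in 3250 genes (19.5%). For 1499 genes (8.98%) the 95% interval of the difference stayed within 1.2-fold either way. The plot of difference against level shows calls over the whole range of expression, with differences beyond 2 on the log2 scale mostly at low levels.

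**Figure D2:**
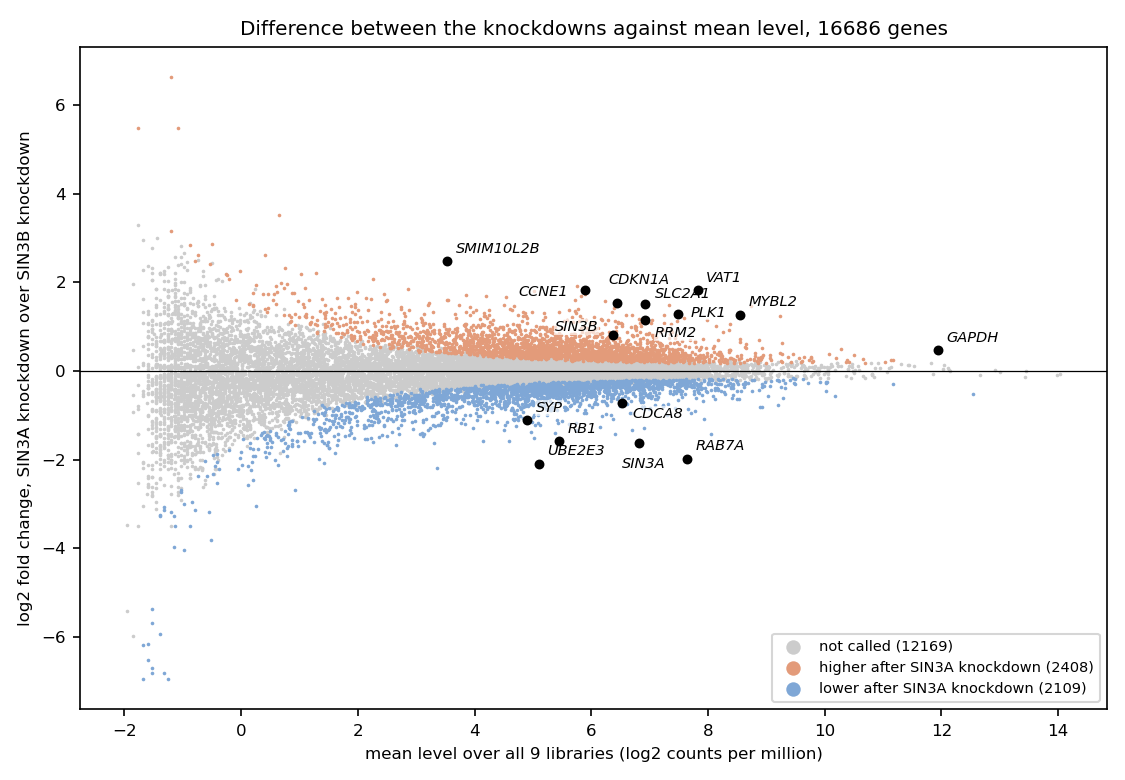
Log2 fold change of SIN3A knockdown over SIN3B knockdown (vertical axis) against the mean level over all 9 libraries (log2 CPM) for 16686 genes. Orange and blue points are the 2408 genes called higher and the 2109 called lower, grey points are not called, and black points are genes named in the text. RAB7A, at -1.98, and VAT1, at 1.82, stand out at levels where most differences are much smaller.

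The 10 largest differences each way, taken from called genes with a mean over 1 log2 CPM and no overlap of the knockdowns' libraries, differed in where control lay. In some the knockdowns lay on opposite sides of control. VAT1, a vesicle membrane protein (chromosome 17, 43014605 to 43025123), was at 408, 395 and 343 CPM after SIN3A knockdown, 179, 190 and 200 CPM in control and 112, 103 and 110 CPM after SIN3B knockdown, a difference of 1.82 ± 0.08 (edgeR adjusted p = 1.63e-11). TMEM52, a membrane protein, was at 12.7, 10.5 and 13.6 CPM against 3.98, 2.21 and 4.0 CPM (1.85 ± 0.24), with control at 6.52, 7.36 and 4.04 CPM. SMIM10L2B had the largest difference of the 20, 2.47 ± 0.15, from 22.1, 24.4 and 19.1 CPM to 4.29, 3.83 and 3.68 CPM. Its near-identical neighbour SMIM10L2A can share its reads, so the value of either copy is uncertain. HLF, a transcription factor of the PAR bZIP family, was lower after SIN3A knockdown, at 0.920, 1.57 and 1.41 CPM against 4.59, 3.98 and 4.64 CPM (-1.75 ± 0.31), with control at 2.70, 2.97 and 1.76 CPM.

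In others one knockdown lay far from control and the other nearer to it. UBE2E3, a ubiquitin-conjugating enzyme (chromosome 2, 180967248 to 181076585), was at 11.4, 11.4 and 10.2 CPM after SIN3A knockdown, and at 43.8, 49.1 and 47.5 CPM after SIN3B knockdown beside 42.4, 46.3 and 45.0 CPM in control. The difference was -2.09 ± 0.10 (edgeR adjusted p = 7.67e-11). NXN, nucleoredoxin, a thioredoxin-like regulator of Wnt signalling (chromosome 17, 799313 to 979770), was at 24.6, 18.3 and 20 CPM after SIN3B knockdown and 85.0, 78.1 and 72.4 CPM after SIN3A knockdown (1.90 ± 0.11), with control at 62.0, 61.2 and 62.3 CPM. NRM, nurim, a protein of the inner nuclear membrane (chromosome 6, 30688047 to 30691420), was likewise low after SIN3B knockdown, at 15, 13.0 and 12.3 CPM against 45.4, 51.8 and 43.1 CPM (1.80 ± 0.11). ITIH5, an inter-alpha-trypsin inhibitor heavy chain, was at 4.05, 5.16 and 5.01 CPM after SIN3A knockdown and 1.53, 0.442 and 1.12 CPM after SIN3B knockdown (2.20 ± 0.38).

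Of the remaining genes of this rule, SPSB2 (2.08 ± 0.27) and SPEF1, a microtubule-binding protein of cilia (1.88 ± 0.42), were higher after SIN3A knockdown. ACSL6, a long-chain acyl-CoA synthetase (-2.08 ± 0.36), CTSO, a cysteine cathepsin (-1.99 ± 0.42), FAM198A (-1.85 ± 0.33), SLC40A1, the iron exporter ferroportin (-1.73 ± 0.35), and GNAO1, a G protein alpha subunit abundant in neurons (-1.68 ± 0.24), were lower. AC010997.3, a long noncoding RNA on chromosome 10, had the lowest value of the 20, -2.19 ± 0.18, from 3.86, 2.50 and 3.92 CPM after SIN3A knockdown to 16.2, 15.5 and 15.2 CPM after SIN3B knockdown. AC023043.1 (2.19 ± 0.43), antisense to ELP2, ST20-AS1 (-1.68 ± 0.31), antisense to ST20, and SPSB2, which overlaps TPI1, are uncertain, since the sources used here do not say whether counting used strand. All 20 genes had edgeR adjusted p of at most 0.00237, and that their libraries do not overlap was a condition of the rule. Some of them had libraries at or below the floor of 12 counts, so the size of their differences is uncertain. In the SIN3A knockdown these were ACSL6 (0.368 CPM in replicate 1) and CTSO (0.47 CPM in replicate 2). In the SIN3B knockdown they were AC023043.1 (0.459 and 0.295 CPM in replicates 1 and 2) and ITIH5 (0.442 CPM in replicate 2).

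**Figure D3:**
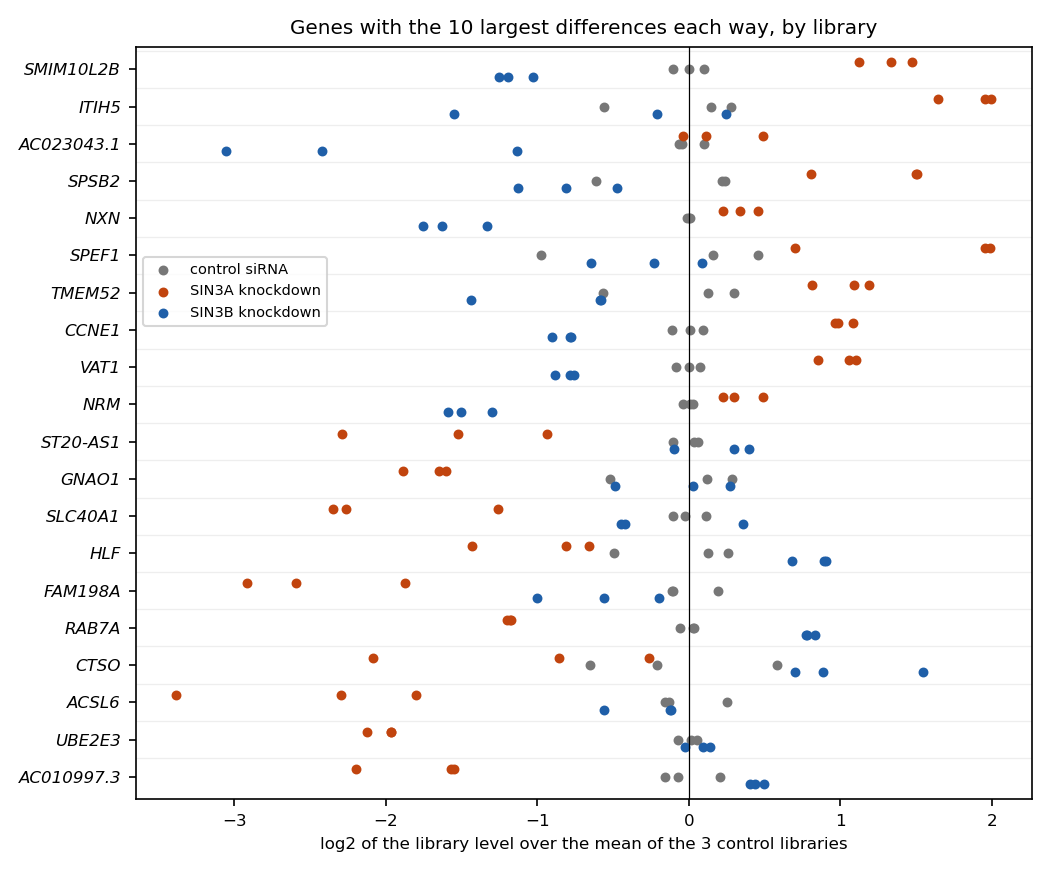
Level in each library over the mean of the 3 control libraries (log2, horizontal axis) for the 20 genes with the largest differences each way. Grey points are control, orange points SIN3A knockdown and blue points SIN3B knockdown libraries. The knockdowns lie on either side of control in SMIM10L2B, CCNE1, VAT1, HLF and RAB7A, and the SIN3B knockdown lies near or among the control libraries in UBE2E3 and GNAO1.

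The transcripts of the SIN3 complex itself differed in both directions. Of 25 subunits tested, 11 were higher and 6 lower after SIN3A knockdown, with a median of 0.10 (14.4% and 12.6% of all genes), and these counts include SIN3A and SIN3B themselves. Higher were the SIN3 complex subunits SUDS3 (0.69 ± 0.08) and BRMS1 (0.70 ± 0.10), the PHD finger proteins ING1 (0.73 ± 0.13) and ING2 (0.68 ± 0.13), SAP130 (0.54 ± 0.09), EMSY (0.49 ± 0.10), SAP30L (0.46 ± 0.11), ARID4A (0.46 ± 0.11) and SINHCAF (0.37 ± 0.09). SUDS3, which links the scaffold to deacetylase activity, was at 125, 115 and 119 CPM after SIN3A knockdown, 106, 97.7 and 109 CPM in control and 74.7, 70.3 and 77.5 CPM after SIN3B knockdown. KDM5B, a histone H3 lysine demethylase, was higher at 130, 152 and 127 CPM against 74.7, 75.9 and 85.8 CPM (0.79 ± 0.09).

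Its paralog KDM5A had the opposite difference, at 53.5, 56.7 and 49.4 CPM after SIN3A knockdown against 72.1, 80.5 and 81.0 CPM after SIN3B knockdown (-0.55 ± 0.09). The paralogs BRMS1 and BRMS1L were split in the same way, with BRMS1L at -0.53 ± 0.11. GATAD1 (-0.55 ± 0.09), the histone chaperone RBBP4 (-0.52 ± 0.06) and the chromodomain protein MORF4L1 (-0.30 ± 0.06) were the other subunits called lower. The catalytic core did not pass the test. HDAC1 was at 387, 378 and 368 CPM after SIN3A knockdown and 347, 358 and 349 CPM after SIN3B knockdown (0.10 ± 0.06, 95% interval -0.03 to 0.23, edgeR adjusted p = 0.245), and HDAC2 was at 0.12 ± 0.07 (-0.03 to 0.27, edgeR adjusted p = 0.253). HDAC2 was called in the fit that adjusts for GC content and exon length, at 0.295 (edgeR adjusted p = 0.00954). RBBP7 (-0.03 ± 0.07), SAP30 (-0.02 ± 0.13), SAP18 (-0.09 ± 0.07), OGT (-0.12 ± 0.09), ARID4B (-0.11 ± 0.11) and PHF12 (-0.05 ± 0.11) were not called either. Without the genes whose 3′ UTR holds one of the 7-base sequences described further on, 16 subunits remained, with 6 higher and 3 lower and a median of -0.02, so the sign of the list's median turned.

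Of 22 DNA-binding factors that recruit SIN3, 10 were higher and 3 lower, with a median of 0.25. Of all genes 14.4% were higher and 12.6% lower, so the lower share is near that of all genes. MXI1, a MAX partner that represses through SIN3, was at 66.2, 63.9 and 64.7 CPM after SIN3A knockdown, 52.1, 42.9 and 53.9 CPM in control and 27.5, 27.3 and 32.7 CPM after SIN3B knockdown (1.16 ± 0.10, edgeR adjusted p = 1.3e-07). MAX itself (0.56 ± 0.08) and MXD4 (0.50 ± 0.08) were higher too, as was KLF16, a zinc finger factor (0.79 ± 0.10). CTCF, a zinc finger factor of chromatin architecture (-0.40 ± 0.07), was lower. Without SIN3A knockdown replicate 1, 13 were higher and 1 lower.

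Cell-cycle genes were listed by phase. Entry into S phase is driven by E2F factors through cyclin E, replication factors and enzymes of nucleotide synthesis, and is held back by CDK inhibitors and pocket proteins. Genes of the G2 and M phases are switched on later, by the MYBL2-containing MuvB complex and FOXM1. In these data most of the G2 and M phase list was lower after SIN3A than after SIN3B knockdown, while most genes of the G1, CDK inhibitor and replication lists were not called.

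Of 19 G1 cyclins, their kinases and E2F factors, 5 were higher and 3 lower (median 0.16), where 14.4% and 12.6% of all genes were, so the lower share is near that of all genes. Beside CCNE1, the transcription factor E2F1 was at 110, 118 and 114 CPM after SIN3A knockdown, 103, 108 and 105 CPM in control and 55.7, 50.6 and 55.5 CPM after SIN3B knockdown, a difference of 1.08 ± 0.08 (edgeR adjusted p = 5.8e-09). CDK2, the kinase partner of cyclin E, was higher by 0.37 ± 0.07. E2F3 (-0.60 ± 0.07) and TFDP1, the dimer partner of E2F factors (-0.31 ± 0.07), were lower. Adjusted for GC content and exon length, 8 were higher and 4 lower.

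Of 41 genes of DNA replication and nucleotide synthesis, 13 were higher and 2 lower, with a median of 0.13. RRM2, the small subunit of ribonucleotide reductase, was at 153, 139 and 150 CPM after SIN3A knockdown and 150, 149 and 145 CPM in control, and at 67.8, 66.5 and 65.6 CPM after SIN3B knockdown (1.15 ± 0.07, edgeR adjusted p = 1.15e-09). The low group was thus the SIN3B knockdown. TK1, the thymidine kinase of S phase, was at 165, 139 and 126 CPM against 61.7, 57.0 and 61.3 CPM (1.26 ± 0.09), with control at 108, 113 and 106 CPM. UHRF1, a factor of DNA methylation maintenance (0.57 ± 0.09), and ORC6, an origin recognition subunit (0.56 ± 0.09), were higher, and the clamp loader subunit RFC3 (-0.54 ± 0.09) and GINS1 of the replicative helicase (-0.36 ± 0.09) were lower. MCM4, a helicase subunit, was at 449, 459 and 479 CPM against 432, 418 and 419 CPM (0.13 ± 0.06, edgeR adjusted p = 0.136) and was called without SIN3A knockdown replicate 1, at 0.16 (edgeR adjusted p = 0.0204), as well as by DESeq2 and with the offsets for GC content and exon length. Without that library 17 genes of the list were higher and 4 lower.

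Among 11 CDK inhibitors and pocket proteins, 3 were higher and 1 lower (14.4% and 12.6% of all genes), and 3 and 2 without SIN3A knockdown replicate 1. CDKN1C, the inhibitor p57, was at 7.73, 7.51 and 4.86 CPM after SIN3A knockdown and 3.21, 2.06 and 2.08 CPM after SIN3B knockdown (1.45 ± 0.27), and RBL2, the pocket protein p130, at 89.6, 104 and 106 CPM against 68.9, 72.2 and 74.9 CPM (0.47 ± 0.08). RB1, the founding pocket protein (chromosome 13, 48303726 to 48599436), was lower, at 17.3, 19.4 and 27.6 CPM after SIN3A knockdown, 45.6, 43.5 and 45.3 CPM in control and 60.1, 70.0 and 62.4 CPM after SIN3B knockdown (-1.58 ± 0.13, edgeR adjusted p = 4.91e-08). CDKN1B, the inhibitor p27, was above control in both knockdowns, at 49.1, 43.5 and 61.4 CPM after SIN3A and 60.5, 57.8 and 55.4 CPM after SIN3B knockdown against 28.4, 29.9 and 29.7 CPM. Its direct difference was -0.17 ± 0.11 (edgeR adjusted p = 0.261), with a 95% interval of -0.40 to 0.05, and it was called without SIN3A knockdown replicate 3, at -0.32 (edgeR adjusted p = 0.0163). CDKN2D (0.48 ± 0.20, edgeR adjusted p = 0.0816), CDKN2C (-0.13 ± 0.09), RBL1 (0.08 ± 0.11), CDKN3 (0.04 ± 0.09) and CDKN2B (0.08 ± 0.17) did not pass the test. CDKN2C was called when adjusted for GC content and exon length, at -0.25 (edgeR adjusted p = 0.0169). CDKN2A (-0.08 ± 0.09) was not called either, but was without SIN3A knockdown replicate 1, at -0.20 (edgeR adjusted p = 0.0233). CDKN2D was called under 4 alternatives, at 0.485 to 0.647 (edgeR adjusted p of 0.0429 to 0.0491), among them the fits without control replicate 1 and without SIN3B knockdown replicate 1.

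Of 51 G2 and M phase genes, 34 were lower and 2 higher after SIN3A knockdown, with a median of -0.40, where 12.6% of all genes tested were lower and their median was -0.02. CDCA8, a subunit of the chromosomal passenger complex (chromosome 1, 37692418 to 37709719), was at 67.2, 77.9 and 73.0 CPM after SIN3A knockdown, 84.7, 86.9 and 83.1 CPM in control and 119, 118 and 125 CPM after SIN3B knockdown (-0.73 ± 0.08, edgeR adjusted p = 1.01e-06). KIF20A, a kinesin of cytokinesis, was at 84.5, 82.6 and 81.2 CPM, 82.8, 102 and 93.1 CPM and 130, 132 and 138 CPM in the same order (-0.69 ± 0.08). The SIN3B knockdown was the group that stood apart from control for these genes: against control the list's median was 0.42 after SIN3B knockdown and -0.03 after SIN3A knockdown, values that share the control libraries. These are bulk samples, so fewer cells in a phase and less RNA of a gene per cell cannot be told apart. Without genes that hold one of the 7-base sequences in the 3′ UTR, 28 of 44 were lower and 1 higher, and adjusted for GC content and exon length 31 of 51 were lower and 2 higher.

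The 2 exceptions were regulators. MYBL2, the activator of the MuvB complex, was at 496, 538 and 478 CPM after SIN3A knockdown, 415, 408 and 420 CPM in control and 223, 194 and 210 CPM after SIN3B knockdown (1.27 ± 0.07, edgeR adjusted p = 3.22e-10). PLK1, the kinase of mitotic entry (chromosome 16, 23677656 to 23690367), was at 205, 231 and 213 CPM, 227, 239 and 237 CPM and 91.9, 94.9 and 81.3 CPM (1.27 ± 0.08, edgeR adjusted p = 7.51e-10). In the SIN3B knockdown all 3 libraries of both genes were below the 3 of control, opposite in sign to the list's median against control.

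Promoters of this list were read because its members moved together. G2 and M phase genes commonly carry the cell-cycle homology region (CHR), TTTGAA, near the start of transcription. Of 44 list members with a promoter in RefSeq (GRCh38.p14, 250 bases before to 50 after the start, both strands), 28 (63.6%) held TTTGAA, against 9.42% of 10898 tested genes with a promoter of that length. Among the 29 members called lower with a promoter the share was 72.4%. Members that were not called, CDK1 and KIF23 among them, held the letters as well. CCAAT was in 75.0% of the list and 36.7% of all. The windows below show PLK1, which was higher, beside 5 members that were lower, with 1 match of the CHR letters per window in capitals. The last 4 were chosen after their values were seen. The HMMR window holds a further match, at position -22, left in lower case.
PLK1 (chr16:23678851-23678874, plus strand): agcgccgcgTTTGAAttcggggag
CDCA8 (chr1:37692484-37692507, plus strand): actgtggagTTTGAAttgggtggc
HMMR (chr5:163460595-163460618, plus strand): gtggggagaTTTGAAtttgaaacc
BUB1B (chr15:40161037-40161060, plus strand): accgttaaaTTTGAAacttggcgg
KIF4A (chrX:70290061-70290084, plus strand): cgggacggaTTTGAAacttggcgg
CCNB2 (chr15:59105108-59105131, plus strand): gacgcggtaTTTGAAtcctggaac
PLK1 held the same letters at position -29 from its start in RefSeq, CDCA8 at position -23 and KIF4A at position -34. The windows of PLK1 and CDCA8 lie inside the gene spans given above, which come from GENCODE and start further upstream. These letters were thus present in 1 of the 2 members that were higher and in these that were lower. For MYBL2, the other member that was higher, no window with these letters was found. Whether its promoter was among the 44 read is not given here. HMMR, the hyaluronan-mediated motility receptor (-0.76 ± 0.10), the checkpoint kinase BUB1B (-0.48 ± 0.09), the kinesin KIF4A (-0.40 ± 0.07) and cyclin B2, CCNB2 (-0.49 ± 0.08), were called lower. In the replication list, 17 of 35 genes with a promoter (48.6%) held the E2F-type letters GCGGGAA, against 10.3% of all. A match describes the letters of a window and is not a measured binding site.

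Polyadenylated histone genes, most of them independent of replication, had the same direction as the mitotic genes. Of 17 tested, 10 were lower and 0 higher after SIN3A knockdown, with a median of -0.39. HIST1H1C, a linker histone, was at 5.15, 5.16 and 5.17 CPM after SIN3A knockdown against 9.79, 10.3 and 13.3 CPM after SIN3B knockdown (-1.11 ± 0.16), with control at 9.70, 8.77 and 10.2 CPM. HIST1H2AC (-1.45 ± 0.26), H2AFX, the variant phosphorylated at DNA breaks (-0.45 ± 0.07), and the linker histone H1F0 (-0.39 ± 0.07) were lower as well. Poly-A selection catches only part of the histone transcripts. Of 29 DNA repair genes, 6 were higher and 4 lower (14.4% and 12.6% of all genes), with a median of 0.01 (-0.02 with upper-quartile scaling).

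Of 29 p53 targets, 7 were higher and 3 lower after SIN3A knockdown (14.4% and 12.6% of all genes), with a median of 0.165. With CDKN1A, the antiproliferative BTG2 was higher, at 82.2, 87.6 and 72.9 CPM against 43.0, 46.4 and 43.4 CPM (0.87 ± 0.09), and so was BAX, a pore-forming effector of apoptosis, at 160, 152 and 146 CPM against 96.4, 96.0 and 86.9 CPM (0.71 ± 0.08). In both, the SIN3B knockdown lay among or near the control libraries (42.8, 48.7 and 45.8 CPM for BTG2). PMAIP1, which encodes the proapoptotic NOXA, was lower, at 39.2, 29.6 and 56.6 CPM against 116, 106 and 114 CPM (-1.42 ± 0.15). MDM2, the ubiquitin ligase that restrains p53, was lower by 0.40 ± 0.08. In the BCL2 family 3 of 17 were higher and 3 lower, near the 14.4% and 12.6% of all genes, with BMF (1.06 ± 0.15) higher and the survival gene MCL1 (-0.58 ± 0.08) lower. HEK293T cells carry large T antigen, which binds p53 and the pocket proteins, and that limits them as a model for both.

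Called genes of glycolysis, the hypoxia response and fatty acid synthesis were mostly higher after SIN3A than after SIN3B knockdown. Of 21 glycolysis genes, 10 were higher and 1 lower (median 0.20), and of 22 hypoxia targets, 12 were higher and 0 lower (median 0.35). SLC2A1, the glucose transporter GLUT1 that both lists hold, was at 163, 180 and 144 CPM after SIN3A knockdown, 142, 124 and 160 CPM in control and 62.0, 55.1 and 54.6 CPM after SIN3B knockdown (1.503 ± 0.10, edgeR adjusted p = 3.14e-09). HK1, the first enzyme of glycolysis, was at 243, 260 and 226 CPM against 173, 164 and 166 CPM (0.54 ± 0.07), and GAPDH at 4840, 4390 and 3940 CPM against 3220, 3110 and 3160 CPM (0.47 ± 0.07). ADM, the hypoxia-induced peptide adrenomedullin (1.23 ± 0.14), and PDK1, which limits pyruvate use by mitochondria (0.68 ± 0.09), were higher. ENO3, the muscle enolase, was the exception, at -1.09 ± 0.18. The lists' medians against control were 0.08 (glycolysis) and -0.06 (hypoxia) after SIN3A knockdown and -0.20 and -0.51 after SIN3B knockdown, so the lower levels were those of the SIN3B knockdown. Of the 13 hypoxia targets without a 7-base sequence, 7 were higher and 0 lower.

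Of 19 fatty acid synthesis genes, 10 were higher and 1 lower, with a median of 0.26. SCD5, a stearoyl-CoA desaturase, was at 29.4, 27.5 and 32.6 CPM after SIN3A knockdown, 28.9, 25.4 and 29.3 CPM in control and 9.95, 12.5 and 9.28 CPM after SIN3B knockdown (1.49 ± 0.13, edgeR adjusted p = 8.27e-08). ACSS2 (0.86 ± 0.11) and ACLY (0.40 ± 0.06), which make acetyl-CoA from acetate and citrate, were higher, and the elongase ELOVL5 was lower (-0.79 ± 0.08). SCD, the main desaturase of the list, was below control in both knockdowns and differed little between them, at 756, 789 and 777 CPM against 758, 721 and 750 CPM (0.06 ± 0.06, 95% interval -0.07 to 0.18). Of the 9 members without a 7-base sequence, 4 were higher and 0 lower with a median of 0.02, and adjusted for GC content and exon length 11 of 19 were higher and 3 lower. Cholesterol genes were mixed, 8 higher and 3 lower of 24 (14.4% and 12.6% of all genes). TM7SF2 (0.89 ± 0.10) and FDFT1 (0.48 ± 0.07) were among the higher and SC5D (-0.49 ± 0.11) among the lower. The list of 16 NRF2 antioxidant genes was split, 5 higher and 5 lower, with the cystine transporter SLC7A11 at -1.25 ± 0.18.

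Of 41 lysosome and autophagy genes, 17 were higher and 2 lower (median 0.16). CTSA, a lysosomal carboxypeptidase, was at 149, 161 and 140 CPM against 81.1, 78.6 and 69.5 CPM (0.97 ± 0.09), and MCOLN1, the lysosomal calcium channel, at 35.5, 40.5 and 38.5 CPM against 19.0, 17.1 and 20.6 CPM (1.02 ± 0.11), with control at 20.3, 23.5 and 24.6 CPM. NEU1, a sialidase (0.63 ± 0.09), was higher, and the proton pump subunits ATP6V1C1 (-0.63 ± 0.10) and ATP6V1A (-0.33 ± 0.08) were lower. Adjusted for GC content and exon length, 18 were higher and 6 lower. RAB7A, which acts on the same organelle, had by far the largest difference among 32 endosomal Rab GTPases and partners. Of these, 9 were higher and 5 lower (14.4% and 12.6% of all genes), with a median of 0.03. MON1B, a subunit of the exchange factor that activates RAB7A, was at 65.9, 66.4 and 68.6 CPM against 37.2, 38.8 and 36.3 CPM (0.84 ± 0.08), opposite to RAB7A. RAB4A (-0.48 ± 0.09) and RAB6A (0.41 ± 0.07) had smaller differences.

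Among genes of BMP signalling and immediate early genes, calls were more often higher than lower after SIN3A knockdown. Of 18 genes of BMP signalling and the ID family, 10 were higher and 0 lower (median 0.40). NOG, the BMP antagonist noggin, was at 7.36, 5.48 and 5.01 CPM after SIN3A knockdown, 10.5, 6.73 and 9.48 CPM in control and 2.30, 1.77 and 1.76 CPM after SIN3B knockdown (1.61 ± 0.24). ID3, an inhibitor of helix-loop-helix factors, was at 41.8, 36.2 and 32.4 CPM against 19.4, 21.2 and 18.9 CPM (0.89 ± 0.11), with SMAD5 (0.82 ± 0.12) and ID2 (0.39 ± 0.07) also higher. Of 29 immediate early genes, 9 were higher and 2 lower (median 0.29), among them SRF, which drives many of them (0.65 ± 0.08), JUNB (0.74 ± 0.12) and IER5 (0.54 ± 0.09), against EGR1 (-0.63 ± 0.13) and ATF3 (-0.27 ± 0.09, edgeR adjusted p = 0.0323). ATF3 lost its call in 6 of the 9 fits that left out 1 library, with values of -0.30 to -0.24 (edgeR adjusted p of 0.0515 to 0.114). Wnt targets and antagonists were mixed, 6 higher and 4 lower of 18 (14.4% and 12.6% of all genes). TCF7 (0.88 ± 0.14) and NKD2 (0.63 ± 0.14) were higher and FZD7 (-0.70 ± 0.13) and LGR5 (-0.97 ± 0.23) lower. Of 20 interferon-stimulated genes, 6 were higher and 2 lower (14.4% and 12.6% of all genes). The antigen presentation genes HLA-C (0.69 ± 0.08) and TAP1 (0.74 ± 0.12) were among the higher. The RNA sensors DDX58 (-0.76 ± 0.18) and EIF2AK2 (-0.39 ± 0.10) were the lower.

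Neuronal and HOX genes were more often called lower than higher after SIN3A knockdown. Of 30 neuronal genes tested, 10 were lower and 2 higher, with a median of -0.50. SYP, synaptophysin of synaptic vesicles (chromosome X, 49187804 to 49200259), was at 15.3, 13.0 and 14.4 CPM after SIN3A knockdown, 34.6, 28.5 and 29.3 CPM after SIN3B knockdown and 49.4, 39.6 and 44.4 CPM in control (-1.11 ± 0.12, edgeR adjusted p = 1.12e-06), so both knockdowns were below control and SIN3A further. CELSR3, a cadherin of axon guidance (-0.79 ± 0.12), and VAMP2, a vesicle fusion protein (-0.50 ± 0.09), were lower, and the light neurofilament NEFL (0.73 ± 0.10) and RAB3A, a GTPase of vesicle release (0.53 ± 0.13), higher. Of 37 HOX genes, 14 were lower and 4 higher (median -0.19). The split ran through the HOXA cluster, with HOXA7 (-0.82 ± 0.10), HOXA10 (-0.53 ± 0.08) and HOXA9 (-0.42 ± 0.08) lower and HOXA13 (0.86 ± 0.12), at one end of the cluster, higher. HOXA7 was at 25.6, 25.4 and 25.1 CPM after SIN3A knockdown and 45.6, 48.2 and 40.5 CPM after SIN3B knockdown, both above the 16.5, 14.2 and 14.9 CPM of control. These 4 overlap a tested transcript on the opposite strand. Adjusted for GC content and exon length, 2 HOX genes were higher and 15 lower.

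**Figure D4:**
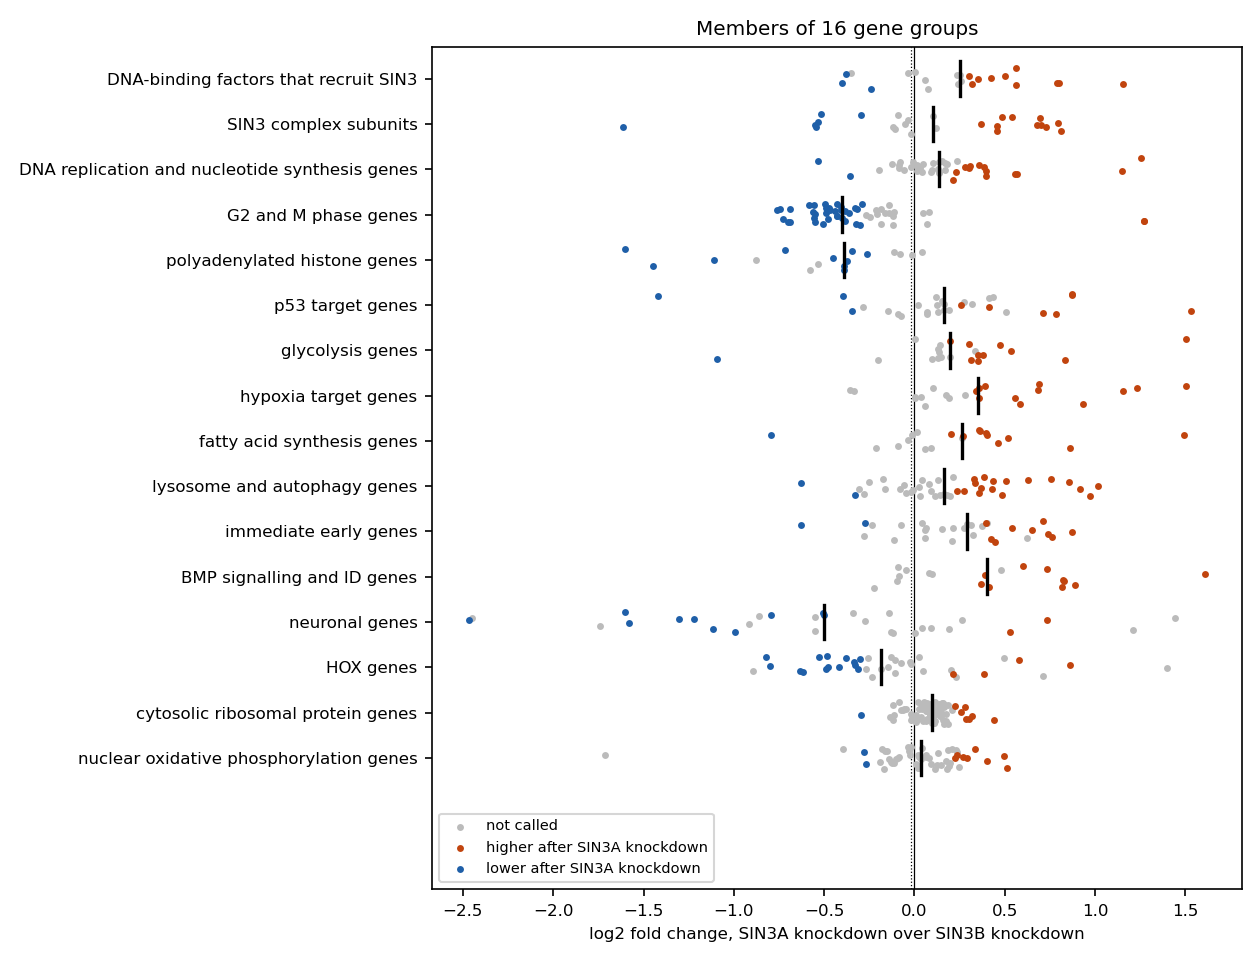
Log2 fold change of SIN3A knockdown over SIN3B knockdown (horizontal axis) of the tested members of 16 gene groups. Each point is a gene, orange where called higher, blue where called lower and grey where not called, black bars are group medians, and the dotted line is the median of all genes tested. The G2 and M phase genes lie mostly below 0 with MYBL2 and PLK1 at 1.27, and the hypoxia and BMP groups hold 12 and 10 genes called higher and 0 called lower.

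Genes of translation and respiration were called about as often as all genes or less often. Of 76 cytosolic ribosomal protein genes, 7 were higher and 1 lower, and of 53 nuclear genes of oxidative phosphorylation, 8 were higher and 2 lower, with medians of 0.10 and 0.04 (14.4% of all genes were higher and 12.6% lower). The signs rested on 1 library: without SIN3A knockdown replicate 1 the medians were -0.03 and -0.04 and the counts were 4 higher and 11 lower (ribosomal) and 5 higher and 10 lower (oxidative phosphorylation). ATP5MC1, a subunit of the ATP synthase ring, was at 154, 141 and 134 CPM against 97.8, 101 and 105 CPM (0.50 ± 0.07). Of 38 ribosome biogenesis genes, 3 were higher and 8 lower, with RRS1 (0.98 ± 0.10) and RRP9 (0.61 ± 0.10) higher and UTP14A (-0.42 ± 0.08) and WDR75 (-0.39 ± 0.09) lower. Of 15 mitochondrially encoded transcripts, 0 were higher and 2 lower, and their share of all counts was 9.01 to 9.59% in the SIN3A knockdown and 9.66 to 10.1% in the SIN3B knockdown. Of 28 ER chaperone and stress response genes, 2 were higher and 7 lower, with CALR (0.39 ± 0.07) higher and DNAJC3 (-0.65 ± 0.10) lower.

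For some genes the knockdowns were close to each other within a narrow interval. NOP56, a core protein of box C/D ribonucleoproteins, was at 454, 431 and 417 CPM after SIN3A and 447, 437 and 462 CPM after SIN3B knockdown (-0.05 ± 0.06, 95% interval -0.17 to 0.08). TCOF1, a nucleolar factor (0.07 ± 0.06, -0.06 to 0.19), and CANX, the ER chaperone calnexin (0.01 ± 0.06, -0.12 to 0.14), were alike in this respect.

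The genes called higher and lower differed in composition. The median GC content of the transcript was 54.7% for genes called higher, 45.4% for genes called lower and 49.5% for all tested, and the median 3′ UTR length was 963, 1526 and 1107 bases. Of protein-coding genes in the lowest of 5 equal bins of GC content, 7.24% were called higher and 23.4% lower, and in the highest bin 25.3% and 9.36%. Chromosome 19 had 18.1% of its tested genes called higher and 8.68% lower, and chromosome 13 had 7.57% and 17.4%. Across 13467 protein-coding genes, GC content had a Spearman correlation of 0.218 with the difference between the knockdowns. With the differences from control it was -0.205 for SIN3A and -0.46 for SIN3B knockdown, values that share the control libraries. The part of GC content in the differences was not tested beyond a fit adjusted for GC content and exon length, in which 2596 genes were higher and 2385 lower. Its part in the values against control given above was not tested.

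Short sequences in the 3′ UTR also moved with the comparison. An siRNA can lower transcripts besides its target when their 3′ UTR pairs with the short seed at the start of its guide strand, as a microRNA does. The siRNA sequences are not given in the sources used here. In 10940 genes 15625 sequences of 7 bases were scanned, after adjustment for UTR length, UTR GC content and expression. AGGTCTA and GGTCTAA ranked first among those that go with lower levels after SIN3A than after SIN3B knockdown. ACAGCCT and CAGCCTT ranked first among those that go with higher levels. Against control, the former ranked first for lower levels after SIN3A knockdown and the latter for lower levels after SIN3B knockdown. Both pairs were picked from these same differences, so the shares and medians that follow are descriptions. The first pair overlaps into an 8-base sequence that occurs once in the coding sequence of SIN3A, in exon 14 of 21. ACAGCCT occurs once in the coding sequence of SIN3B, in exon 14 of 20. It occurs at 2 places in SIN3A, in the coding sequence and in the 3′ UTR, and so is not particular to SIN3B. The 8-base sequence of the second pair, ACAGCCTT, was found in neither transcript. The windows show the 8-base match in SIN3A and the 7-base match in SIN3B, with the matching letters in capitals.
SIN3A coding sequence (chr15:75394717-75394724 in capitals, minus strand): aggtcctgAGGTCTAAgagcttac
SIN3B coding sequence (chr19:16869872-16869878 in capitals, plus strand): cgatgtctACAGCCTattttttgc
The first pair stood in the 3′ UTR of 16.6% of genes called lower, 4.61% of genes called higher and 7.72% of 13278 genes searched. The second pair stood in 34.5% of genes called higher, 22.1% of genes called lower and 24.8% of those searched. Genes with the first pair had a median log2 fold change of -0.18 against 0.00 for genes without, and genes with the second pair 0.04 against -0.03.

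**Figure D5:**
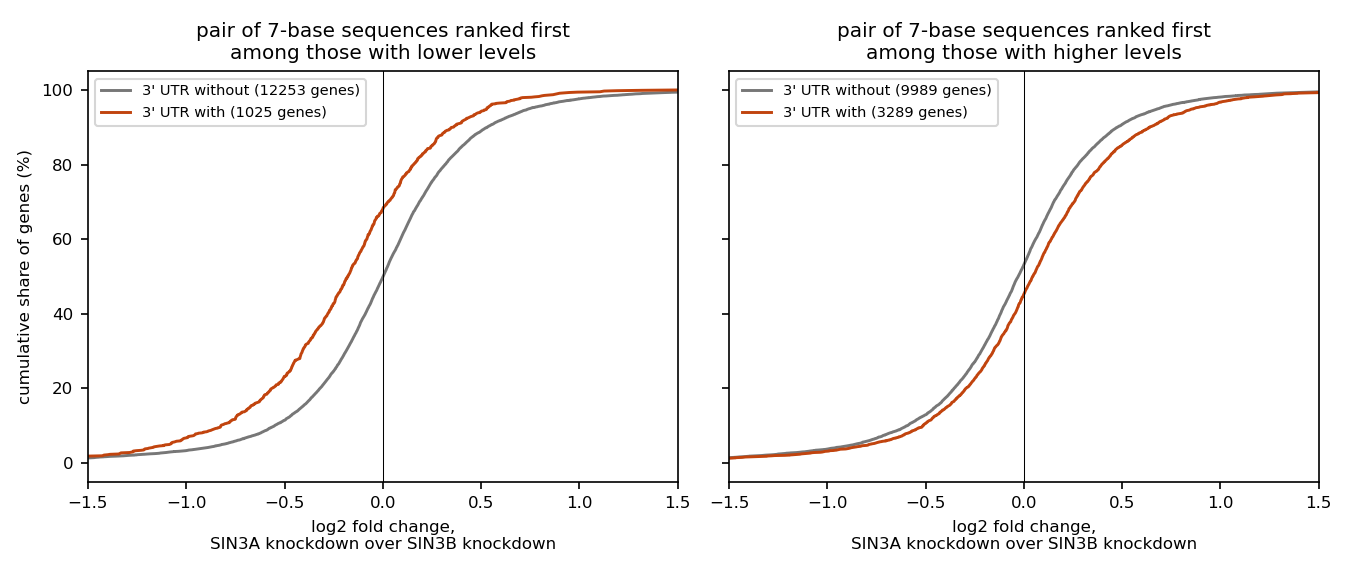
Cumulative share of genes (vertical axis, %) by log2 fold change of SIN3A knockdown over SIN3B knockdown (horizontal axis) for genes with (orange) and without (grey) either sequence of a pair in the 3′ UTR. The 1025 genes with the first pair are shifted to lower values (median -0.18 against 0.00) and the 3289 with the second pair to higher values (median 0.04 against -0.03).

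Several of the genes described above held these sequences. Among genes called lower, RAB7A, RB1, PMAIP1, ELOVL5, KDM5A, ATP6V1C1 and EGR1 held 1 copy of the first pair, HLF and FZD7 2 and MCL1 5, where overlapping matches count separately. Among genes called higher, CDKN1A, VAT1, NXN, MXI1, SCD5, CTSA, BTG2 and others held 1 of the second pair, PLK1, NRM, MON1B and ITIH5 2, SMAD5 3 and SUDS3 4. Other called genes held a pair against their direction: of those called lower, GNAO1 and E2F3 held 2 copies of the second pair and SIN3A, CELSR3 and ATP6V1A 1. RBBP4, DNAJC3 and GINS1 (lower) and SAP30L and NEU1 (higher) held both pairs. CCNE1, UBE2E3, E2F1, MYBL2, RRM2, TK1, SLC2A1, CDCA8, KIF20A, SYP and NOG held none in the transcript searched. The part of these sequences in any gene's difference was not tested. With all genes that hold any of them left out, 1566 genes were higher and 1336 lower.

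The same uncertainty about strand touches other genes, which overlap a tested gene on the other strand. Among those called, these are SIN3A, with AC068338.2, and RB1, KDM5A, RBBP4, MORF4L1, ING1, SINHCAF, MAX, CDK2, RBL2, KIF20A, MDM2, SLC2A1, GAPDH, ENO3, PDK1, ACSS2, CTSA, JUNB, TCF7, ID2, EIF2AK2, NEFL, RAB3A and ATP5MC1, besides the HOXA genes and the antisense transcripts given above. Among those not called, they are ARID4B, RBBP7, PHF12, SAP30, RBL1, CDKN2A and CDKN2B.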

How the data were processed

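Poly-A selected, stranded RNA libraries of 9 HEK293T samples were analysed. Per the submitters' processing notes, the authors used Trimmomatic 0.36, HISAT2 2.1.0, HTSeq and DESeq2 1.20.0 with GRCh38. The authors deposited read counts per Ensembl gene (58734 genes, 31909 with no count), used here as deposited, and FPKM values, used only in an alternative on the log2(FPKM + 1) or log2(FPKM + 0.1) scale. Why nearly all counts are multiples of 4 is not given in the sources used here.

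Genes passing filterByExpr (minimum count 10, minimum total 15) were scaled by TMM factors and fitted over all 9 libraries with edgeR 4.0.16 in R 4.3.3 (quasi-likelihood test, 6 residual degrees of freedom, Benjamini-Hochberg adjusted p under 0.05 over 16686 genes). Differences are log2 of SIN3A over SIN3B knockdown. The members and the 27 pathway lists (769 tested genes, 14 in more than 1) were chosen with earlier results of these data known. Named were the 10 largest called differences each way above 1 log2 CPM without overlap, the 4 called members of each list with the lowest adjusted p and up to 2 opposite to its majority, members of the SIN3 complex and CDK inhibitor lists, and the 5 list genes with the narrowest interval. Names and positions came from GENCODE 29, promoters from RefSeq. The fit was tested on simulated counts. In all, 23 alternatives were tried, among them limma 3.58.1 and DESeq2 1.42.0. Tables and figures used Python 3.11.15, pandas 2.3.3 and matplotlib 3.10.9. Some genes of the lists are counted but not reported here by name.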

Additional observations from a re-analysis of the deposited data

How the results depend on the processing

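No alternative called a gene in the direction opposite to the reported one, and no called named gene changed sign. Named genes near 0 that were not called did, such as CANX (down to -0.03), CDKN3 (down to -0.05), SAP30 (up to 0.10) and PHF12 (up to 0.11). Of the 4517 called genes, those present remained called at 71.6% to 99.9% under each alternative, except at 42.3% where the test was for a difference above 1.2-fold (1101 higher, 810 lower). Without genes with a 7-base sequence in the 3′ UTR, 1566 were higher and 1336 lower, of fewer genes tested. Leaving out 1 library at a time gave 1830 to 2563 higher and 1483 to 2262 lower. Upper-quartile scaling gave 2165 higher and 2418 lower, so 47.2% of calls were higher against 53.3%, with the median of all genes at -0.05.

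The replicate block gave 2251 higher and 1985 lower. Same-numbered SIN3A and SIN3B knockdown libraries had deviation correlations of -0.0688, -0.167 and 0.0111, and no library correlated best with its own number. These values showed no pairing by number. They cannot exclude that libraries of a number were handled together, as they rest on deviations from means of 3 libraries and leave out control. Under the block all 167 named genes kept their side of the threshold. Of the 167, 34 lost their call under the 1.2-fold test and at most 6 under any other alternative, SDHD, ATF3 and RPL23 among them. The cause was not tested.

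Left out in turn, single libraries moved CCNE1 between 1.80 and 1.86, CDKN1A between 1.48 and 1.61, RAB7A between -1.99 and -1.96, SIN3A between -1.66 and -1.57 and SIN3B between 0.75 and 0.91. The depth of each library limits genes near the floor of 12 counts.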
